A study of Mus musculus with 16 samples.

Results

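Interferon-stimulated genes were followed across spleen CD4+ T cells of 4 reporter mouse lines. The set held 41 listed genes, and a gene was kept where a probe set of the array was annotated to that symbol and to no other. That left 38 of the 41, out of 19531 genes with such a probe set, and each of the 38 had 1 probe set. Ifi47, Igtp and Ifi204 shared their probe sets with Olfr56, Irgm2 and Ifi211 and were not used here.

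The study measured RNA from spleen cells of 6-week-old male mice on 16 arrays, as 8 groups of 2. Regulatory T cells (Treg) were sorted as CD3+ CD4+ GFP+ and conventional T cells (Tconv) as CD3+ CD4+ GFP- cells, by 2 rounds of flow sorting. All mice carried a green fluorescent protein (GFP) reporter at Foxp3, the transcription factor gene that defines Treg, so no group was free of a reporter. In the fusion lines (Foxp3-GFP) GFP is joined to the Foxp3 protein, and in the ires lines (Foxp3-ires-GFP) GFP is made as a separate protein from the same transcript. Each allele was on the B6 background and on NOD, a strain prone to autoimmune diabetes. The 8 groups are named here by background, allele and cell type, such as B6 fusion Treg. No label states whether the 2 arrays of a group (sister arrays) stem from different animals or from pooled ones, and the p-values therefore cover only the spread between arrays, which may be technical.

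Type I interferons bind the receptor IFNAR, whose kinases activate STAT2. With IRF9, STAT2 is part of a complex that binds the interferon-stimulated response element in the promoters of many genes at once. The products hinder virus replication, sense viral nucleic acid, or damp the pathway again. In T cells the same genes are known to be held at a low level by resting interferon signalling and to rise together after exposure to interferon.

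The arrays were alike in median signal but not in spread. The interquartile range of log2 values ran from 2.70 on B6 ires Tconv replicate 1 to 3.07 on B6 fusion Treg replicate 2. On B6 fusion replicate 1 it was 2.71 in Tconv and 2.80 in Treg, against 2.85 and 3.07 on replicate 2. Array medians lay between 86.7 and 99.0 intensity units. Sister arrays differed with an SD of 0.185 to 0.251 log2 units over all 12798 tested genes. The summed intensity of 5 Treg markers was 518 to 996 in Tconv and 10640 to 14890 in Treg, and 6 T cell markers were detected on every array. Markers of other cells were partly detected, where detection asked for a log2 value above 6.06 on at least 2 arrays. Of 8 B cell and plasma cell markers Cd79b, Cd22 and Blk passed this filter, with Cd79b between 6.32 and 7.75, and Cd79a, Ms4a1, Pax5, Ebf1 and Jchain did not. Their summed intensity was 348 to 585 in Tconv, with the 585 on NOD fusion Tconv replicate 1 against 363 on its sister array, and 394 to 494 in Treg. Of 7 plasmacytoid dendritic cell markers 6 passed, and Siglech did not. Of 9 CD8 T and NK cell markers 7 passed, among them Cd8b1, Prf1 and Nkg7 with means of 8.42, 8.07 and 7.77, and of 14 myeloid markers 7 passed. All 38 interferon-stimulated genes passed, although Ifitm3 and Mx1 were above that level on 9 of 16 arrays each, Ifit3 on 12, Rsad2 on 14 and Eif2ak2 on 15. Isg15, a further gene of the pathway, was not analysed here.

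The element was searched for in the promoters of the genes, because it is what a shared response to interferon is known to act through. The search used RefSeq promoters of the GRCm38.p6 build, from 250 bases before to 50 bases after the start, and the core of the element, GAAA followed after any 2 bases by a second GAAA, on both strands, with overlapping matches counted separately. A promoter was found for 29 of the 38 genes, and 14 of these held a match (48.3%). Over all 27025 genes with a promoter the share was 3.99%, and over all 32851 promoters of the table it was 3.44%. The genes were listed as interferon-stimulated, so a higher share could be foreseen from their choice and does not bear on these arrays. Among the 12 genes that differed most between the arrays of a group (given below), 4 of the 7 with a promoter held a match, against 10 of the other 22. The 6 promoters below belong to the genes with a match before the start that differed most between sister arrays, and show the 250 bases before the start. Capitals mark the matches, which read TTTC, 2 bases, TTTC where the motif lies on the other strand.
Ifit3 (chr19:34583279-34583528, plus strand): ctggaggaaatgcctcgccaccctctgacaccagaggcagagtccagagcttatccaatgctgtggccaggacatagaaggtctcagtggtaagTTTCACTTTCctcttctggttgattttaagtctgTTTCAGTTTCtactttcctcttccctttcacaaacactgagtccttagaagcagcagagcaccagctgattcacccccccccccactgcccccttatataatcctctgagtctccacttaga
Ifit1 (chr19:34640639-34640888, plus strand): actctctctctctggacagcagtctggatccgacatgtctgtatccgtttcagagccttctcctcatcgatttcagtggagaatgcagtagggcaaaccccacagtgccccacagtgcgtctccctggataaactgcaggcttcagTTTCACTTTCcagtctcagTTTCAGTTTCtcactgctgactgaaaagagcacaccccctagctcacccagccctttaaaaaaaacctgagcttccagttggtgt
Rsad2 (chr12:26456453-26456702, minus strand): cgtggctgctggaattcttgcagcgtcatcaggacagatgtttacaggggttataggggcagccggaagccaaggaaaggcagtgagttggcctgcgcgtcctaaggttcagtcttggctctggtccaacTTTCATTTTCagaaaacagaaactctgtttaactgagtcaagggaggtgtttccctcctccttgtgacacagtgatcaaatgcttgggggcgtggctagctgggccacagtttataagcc
Gbp3 (chr3:142559794-142560043, plus strand): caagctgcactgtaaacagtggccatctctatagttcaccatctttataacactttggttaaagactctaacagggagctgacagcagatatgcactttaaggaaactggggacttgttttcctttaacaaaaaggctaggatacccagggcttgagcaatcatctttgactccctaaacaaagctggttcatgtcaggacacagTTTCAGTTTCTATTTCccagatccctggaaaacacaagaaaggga
Oas3 (chr5:120777660-120777909, minus strand): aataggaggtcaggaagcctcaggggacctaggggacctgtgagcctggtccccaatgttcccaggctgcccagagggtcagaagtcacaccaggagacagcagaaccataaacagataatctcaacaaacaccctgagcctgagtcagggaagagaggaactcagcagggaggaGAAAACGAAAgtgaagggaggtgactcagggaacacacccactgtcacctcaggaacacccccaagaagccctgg
Trim30a (chr7:104465194-104465443, minus strand): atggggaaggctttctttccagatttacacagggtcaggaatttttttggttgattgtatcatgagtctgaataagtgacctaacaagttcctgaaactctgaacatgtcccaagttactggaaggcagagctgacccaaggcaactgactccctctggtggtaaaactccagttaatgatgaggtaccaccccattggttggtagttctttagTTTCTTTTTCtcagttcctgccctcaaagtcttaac
In Ifit3 the matches began 156 and 122 bases before the start, in Ifit1 104 and 85 bases before it, and in Rsad2 120. In Gbp3 the matches overlapped and began 45 and 39 bases before the start, in Oas3 the match began at 75 and in Trim30a at 36. A match is a string of letters and not a shown binding site. The genes also lay next to each other in places: of protein-coding genes in RefSeq order, 6 neighbouring pairs were both in the set, among them Rsad2 with Cmpk2, Ifit2 with Ifit3, Oasl2 with Oasl1 and Oas2 with Oas3.

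The 38 genes moved together between arrays of the same group. In both B6 fusion groups all 38 were higher in replicate 1 than in replicate 2, by a median of 0.67 log2 units in Tconv and 0.61 in Treg. Over all tested genes 42.1% were higher in replicate 1 of B6 fusion Tconv and 40.4% in B6 fusion Treg, with medians of -0.03 and -0.06. The other 6 groups went the opposite way or had no common direction. In B6 ires Tconv 1 of 38 was higher in replicate 1 (median -0.42), and in B6 ires Treg 3 of 38 were (median -0.18). In NOD fusion the counts were 9 in Tconv and 16 in Treg, with medians of -0.12 and -0.03, and in NOD ires they were 6 and 5, with medians of -0.19 and -0.14. These counts are a description without a test, because the set was put together with this shared variation in view.

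**Figure D1:**
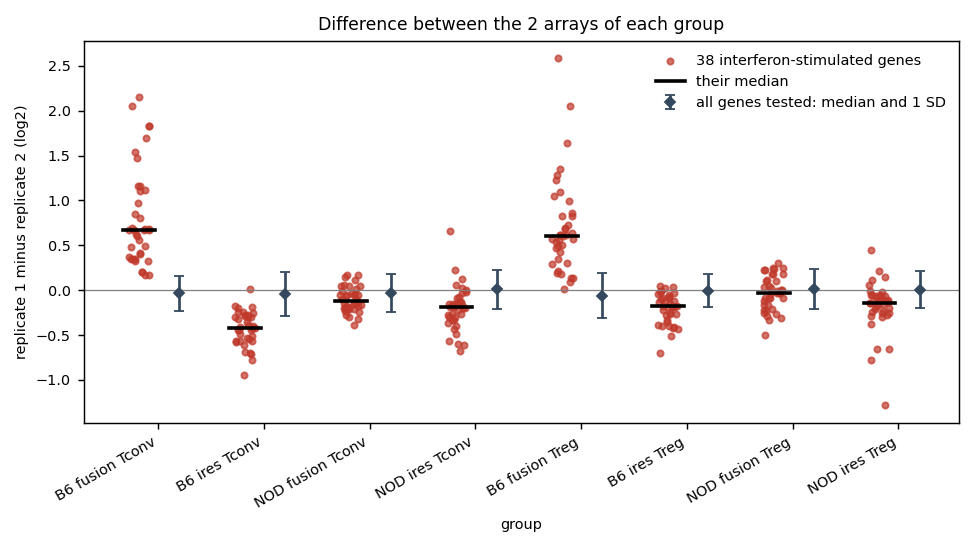
Difference between the 2 arrays of each group (replicate 1 minus replicate 2, log2 units, vertical axis) for the 38 genes (points, with their median as a bar) in the 8 groups (horizontal axis), beside the median and 1 SD of all 12798 tested genes. All 38 points are above 0 in both B6 fusion groups, and 1 of 38 is above 0 in B6 ires Tconv.

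Relative to each gene's mean over the 16 arrays, the median gene was 0.67 higher on B6 fusion Treg replicate 1, where all 38 were above their mean, and 0.46 higher on B6 fusion Tconv replicate 1, where 34 were. The lowest array was NOD ires Tconv replicate 1, at -0.48, where 2 of 38 were above their mean. The corresponding medians over all tested genes lay between -0.04 and 0.02 on every array. Of the 38 genes, 35 had their highest value of all 16 arrays on one of the 2 B6 fusion replicate 1 arrays. NOD ires Tconv replicate 1 held the lowest value of 20 genes and B6 ires Tconv replicate 1 that of 9.

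**Figure D2:**
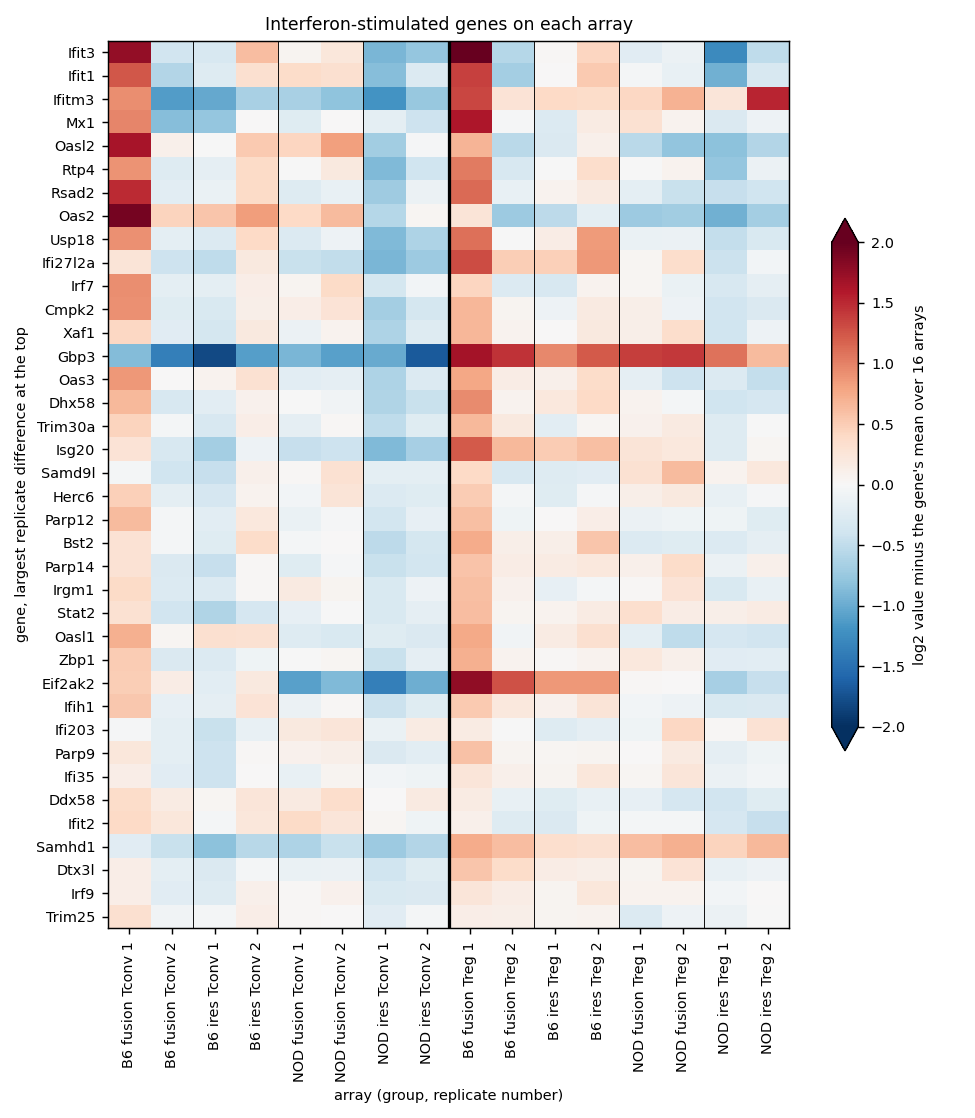
Log2 value of each of the 38 genes (rows, ordered by mean absolute difference between sister arrays) on each of the 16 arrays (columns), minus the gene's own mean; red is above and blue below it. The B6 fusion replicate 1 columns are red for nearly all rows (34 and 38 of 38 genes above their mean), while Gbp3, Samhd1 and Eif2ak2 also split by cell type or strain.

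The values follow by role, as log2 intensity, with the 2 arrays of a group given as replicate 1 and then replicate 2. The IFIT proteins bind viral RNA and block its translation. Ifit3 values in Tconv were 8.40 and 6.25 in B6 fusion, 6.30 and 7.24 in B6 ires, 6.69 and 6.85 in NOD fusion and 5.72 and 5.85 in NOD ires. Ifit3 values in Treg were 8.64 and 6.06 in B6 fusion, 6.65 and 7.06 in B6 ires, 6.40 and 6.52 in NOD fusion and 5.36 and 6.13 in NOD ires. Both B6 fusion replicate 1 arrays stood above 8.3, and no other array exceeded 7.24. Ifit3 was the gene with the largest mean absolute difference between sister arrays, 0.909. Ifit1 values in Tconv were 9.57 and 7.75 in B6 fusion, 8.06 and 8.64 in B6 ires, 8.69 and 8.64 in NOD fusion and 7.48 and 8.05 in NOD ires. Ifit1 values in Treg were 9.69 and 7.64 in B6 fusion, 8.33 and 8.85 in B6 ires, 8.28 and 8.17 in NOD fusion and 7.36 and 8.01 in NOD ires. Again the B6 fusion replicate 1 arrays were highest, at 9.57 and 9.69 against at most 8.85 elsewhere, and the NOD ires replicate 1 arrays were lowest. Ifit2 values in Tconv were 8.83 and 8.66 in B6 fusion, 8.39 and 8.66 in B6 ires, 8.81 and 8.67 in NOD fusion and 8.46 and 8.34 in NOD ires. Ifit2 values in Treg were 8.52 and 8.17 in B6 fusion, 8.14 and 8.34 in B6 ires, 8.39 and 8.38 in NOD fusion and 8.09 and 7.97 in NOD ires. Ifit2 hardly took part: its B6 fusion arrays differed by 0.17 in Tconv and 0.35 in Treg, where Ifit3 differed by 2.15 and 2.59. In each of the 4 lines both Treg arrays were below both Tconv arrays for Ifit2.

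The OAS enzymes make an oligoadenylate messenger that activates an RNA-degrading enzyme, and the OAS-like proteins are their relatives. Oas2 values in Tconv were 9.16 and 7.69 in B6 fusion, 7.80 and 8.08 in B6 ires, 7.65 and 7.88 in NOD fusion and 6.68 and 7.30 in NOD ires. Oas2 values in Treg were 7.51 and 6.52 in B6 fusion, 6.73 and 7.06 in B6 ires, 6.52 and 6.56 in NOD fusion and 6.29 and 6.58 in NOD ires. Oas2 was highest on B6 fusion Tconv replicate 1, and in each line both Treg arrays lay below both Tconv arrays. Oasl2 values in Tconv were 9.09 and 7.55 in B6 fusion, 7.44 and 7.97 in B6 ires, 7.87 and 8.26 in NOD fusion and 6.75 and 7.42 in NOD ires. Oasl2 values in Treg were 8.13 and 6.90 in B6 fusion, 7.16 and 7.55 in B6 ires, 6.90 and 6.65 in NOD fusion and 6.62 and 6.86 in NOD ires. Oasl2 had the same high array, and the 2 cell types overlapped in every line but NOD fusion. Oas3 values in Tconv were 8.65 and 7.80 in B6 fusion, 7.85 and 8.09 in B6 ires, 7.57 and 7.61 in NOD fusion and 7.17 and 7.51 in NOD ires. Oas3 values in Treg were 8.56 and 7.94 in B6 fusion, 7.88 and 8.15 in B6 ires, 7.60 and 7.38 in NOD fusion and 7.52 and 7.31 in NOD ires. For Oas3 all 4 B6 arrays were above all 4 NOD arrays in either cell type, and the cell types overlapped. Oasl1 values in Tconv were 8.22 and 7.55 in B6 fusion, 7.82 and 7.81 in B6 ires, 7.25 and 7.20 in NOD fusion and 7.27 and 7.21 in NOD ires. Oasl1 values in Treg were 8.26 and 7.43 in B6 fusion, 7.68 and 7.83 in B6 ires, 7.31 and 7.004 in NOD fusion and 7.18 and 7.13 in NOD ires. Oasl1 showed the same order of strains in both cell types. Its largest replicate differences were 0.67 and 0.83, in B6 fusion Tconv and Treg.

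Of the other antiviral effectors, Mx1 is a dynamin-like GTPase that traps viral ribonucleoprotein. Mx1 values in Tconv were 7.21 and 5.39 in B6 fusion, 5.46 and 6.24 in B6 ires, 5.99 and 6.24 in NOD fusion and 6.04 and 5.82 in NOD ires. Mx1 values in Treg were 7.85 and 6.21 in B6 fusion, 5.97 and 6.39 in B6 ires, 6.54 and 6.31 in NOD fusion and 5.95 and 6.13 in NOD ires. Outside the B6 fusion replicate 1 arrays no Mx1 value passed 6.54, close to the detection level. Rsad2 encodes viperin, which makes a chain-terminating nucleotide. Rsad2 values in Tconv were 8.003 and 6.30 in B6 fusion, 6.38 and 6.89 in B6 ires, 6.26 and 6.37 in NOD fusion and 5.81 and 6.40 in NOD ires. Rsad2 values in Treg were 7.65 and 6.36 in B6 fusion, 6.58 and 6.70 in B6 ires, 6.32 and 6.07 in NOD fusion and 6.05 and 6.12 in NOD ires. Here too the B6 fusion replicate 1 arrays stood apart, with no other array above 6.89. Cmpk2, a mitochondrial nucleotide kinase, is the neighbour of Rsad2. Cmpk2 values in Tconv were 8.16 and 7 in B6 fusion, 6.94 and 7.36 in B6 ires, 7.39 and 7.53 in NOD fusion and 6.57 and 6.90 in NOD ires. Cmpk2 values in Treg were 7.91 and 7.30 in B6 fusion, 7.15 and 7.43 in B6 ires, 7.37 and 7.14 in NOD fusion and 6.86 and 6.95 in NOD ires. Its B6 fusion arrays differed by 1.16 in Tconv and 0.61 in Treg.

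Ifitm3 encodes a membrane protein that blocks virus entry. Ifitm3 values in Tconv were 7.44 and 5.38 in B6 fusion, 5.47 and 5.85 in B6 ires, 5.86 and 5.69 in NOD fusion and 5.31 and 5.74 in NOD ires. Ifitm3 values in Treg were 7.83 and 6.78 in B6 fusion, 6.89 and 6.86 in B6 ires, 6.91 and 7.20 in NOD fusion and 6.74 and 8.02 in NOD ires. Apart from B6 fusion replicate 1, Tconv stayed at or below 5.86, while every Treg array was at or above 6.74. The highest Ifitm3 value was on NOD ires Treg replicate 2, 1.28 log2 units above its sister array. Isg20 is an RNA exonuclease. Isg20 values in Tconv were 8.70 and 8.10 in B6 fusion, 7.75 and 8.32 in B6 ires, 7.96 and 8.02 in NOD fusion and 7.53 and 7.76 in NOD ires. Isg20 values in Treg were 9.65 and 9.08 in B6 fusion, 8.94 and 9.02 in B6 ires, 8.68 and 8.64 in NOD fusion and 8.16 and 8.46 in NOD ires. In each line both Treg arrays exceeded both Tconv arrays, and in Treg all B6 arrays exceeded all NOD arrays. Bst2 encodes tetherin, which holds budding virus at the cell surface. Bst2 values in Tconv were 8.84 and 8.52 in B6 fusion, 8.31 and 8.92 in B6 ires, 8.52 and 8.57 in NOD fusion and 8.04 and 8.21 in NOD ires. Bst2 values in Treg were 9.30 and 8.68 in B6 fusion, 8.68 and 9.11 in B6 ires, 8.28 and 8.31 in NOD fusion and 8.28 and 8.39 in NOD ires. In Treg the 4 B6 arrays were at or above 8.68 and the 4 NOD arrays at or below 8.39, while in Tconv the strains overlapped.

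Eif2ak2 encodes PKR, a kinase that stops translation when it binds double-stranded RNA. Eif2ak2 values in Tconv were 7.74 and 7.39 in B6 fusion, 7.04 and 7.45 in B6 ires, 6.16 and 6.37 in NOD fusion and 5.88 and 6.28 in NOD ires. Eif2ak2 values in Treg were 9.03 and 8.53 in B6 fusion, 8.12 and 8.12 in B6 ires, 7.28 and 7.26 in NOD fusion and 6.59 and 6.79 in NOD ires. Strain and cell type both separated its arrays: in either cell type all B6 arrays were above all NOD arrays, and in each line both Treg arrays were above both Tconv arrays. Samhd1 hydrolyses deoxynucleotides and so starves reverse transcription. Samhd1 values in Tconv were 11.62 and 11.42 in B6 fusion, 11.04 and 11.30 in B6 ires, 11.23 and 11.40 in NOD fusion and 11.13 and 11.27 in NOD ires. Samhd1 values in Treg were 12.60 and 12.46 in B6 fusion, 12.20 and 12.15 in B6 ires, 12.48 and 12.56 in NOD fusion and 12.30 and 12.50 in NOD ires. All 8 Treg arrays were above all 8 Tconv arrays, and B6 fusion replicate 1 exceeded its sister array by no more than 0.21. The guanylate-binding protein Gbp3 is an interferon-inducible GTPase. Gbp3 values in Tconv were 7.57 and 7.07 in B6 fusion, 6.63 and 7.34 in B6 ires, 7.52 and 7.35 in NOD fusion and 7.42 and 6.76 in NOD ires. Gbp3 values in Treg were 10.10 and 9.89 in B6 fusion, 9.40 and 9.67 in B6 ires, 9.82 and 9.85 in NOD fusion and 9.52 and 9.07 in NOD ires. Gbp3 had the widest gap between the cell types, with every Tconv array at or below 7.57 and every Treg array at or above 9.07.

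Among the interferon-activated transcription factors, Irf7 drives the interferon genes themselves, and Stat2 and Irf9 are parts of the complex that binds the response element. Irf7 values in Tconv were 10.09 and 8.96 in B6 fusion, 8.97 and 9.30 in B6 ires, 9.22 and 9.54 in NOD fusion and 8.81 and 9.10 in NOD ires. Irf7 values in Treg were 9.59 and 8.90 in B6 fusion, 8.84 and 9.24 in B6 ires, 9.20 and 9.03 in NOD fusion and 8.84 and 8.98 in NOD ires. Irf7 was highest on B6 fusion Tconv replicate 1, followed by B6 fusion Treg replicate 1. Stat2 values in Tconv were 9.44 and 8.75 in B6 fusion, 8.53 and 8.81 in B6 ires, 8.98 and 9.14 in NOD fusion and 8.83 and 8.96 in NOD ires. Stat2 values in Treg were 9.76 and 9.19 in B6 fusion, 9.21 and 9.30 in B6 ires, 9.47 and 9.29 in NOD fusion and 9.25 and 9.31 in NOD ires. Stat2 was above its Tconv arrays in both Treg arrays of every line but B6 fusion, where replicate 1 of Tconv exceeded replicate 2 of Treg. Irf9 values in Tconv were 9.39 and 9.03 in B6 fusion, 9 and 9.36 in B6 ires, 9.28 and 9.34 in NOD fusion and 8.95 and 8.97 in NOD ires. Irf9 values in Treg were 9.50 and 9.41 in B6 fusion, 9.31 and 9.48 in B6 ires, 9.32 and 9.33 in NOD fusion and 9.21 and 9.27 in NOD ires. Irf9 spanned only 8.95 to 9.50, and its B6 fusion arrays differed by 0.37 in Tconv and 0.09 in Treg.

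The RNA sensors RIG-I (Ddx58), MDA5 (Ifih1) and LGP2 (Dhx58) recognise viral RNA. Ddx58 values in Tconv were 10.25 and 10.05 in B6 fusion, 9.93 and 10.13 in B6 ires, 10.07 and 10.24 in NOD fusion and 9.90 and 10.07 in NOD ires. Ddx58 values in Treg were 10.05 and 9.75 in B6 fusion, 9.65 and 9.75 in B6 ires, 9.73 and 9.55 in NOD fusion and 9.50 and 9.64 in NOD ires. For Ddx58 both Treg arrays were below both Tconv arrays in each line, most narrowly in B6 fusion, where Treg replicate 1 and Tconv replicate 2 were level at 10.05 to 2 decimals. Ifih1 values in Tconv were 8.501 and 7.81 in B6 fusion, 7.78 and 8.23 in B6 ires, 7.85 and 7.99 in NOD fusion and 7.53 and 7.72 in NOD ires. Ifih1 values in Treg were 8.48 and 8.18 in B6 fusion, 8.05 and 8.23 in B6 ires, 7.91 and 7.87 in NOD fusion and 7.66 and 7.67 in NOD ires. In Treg all 4 B6 arrays lay above all 4 NOD arrays for Ifih1, and in Tconv the strains overlapped. Dhx58 values in Tconv were 8.02 and 7.04 in B6 fusion, 7.15 and 7.45 in B6 ires, 7.36 and 7.29 in NOD fusion and 6.77 and 6.91 in NOD ires. Dhx58 values in Treg were 8.31 and 7.44 in B6 fusion, 7.58 and 7.77 in B6 ires, 7.44 and 7.33 in NOD fusion and 6.97 and 7.02 in NOD ires. Dhx58 took part in the B6 fusion pattern, by 0.98 in Tconv and 0.87 in Treg, and its lowest values were on the NOD ires arrays.

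Usp18 removes ISG15 from proteins and damps signalling at the interferon receptor. Usp18 values in Tconv were 9.27 and 8.17 in B6 fusion, 8.08 and 8.76 in B6 ires, 8.08 and 8.27 in NOD fusion and 7.48 and 7.74 in NOD ires. Usp18 values in Treg were 9.46 and 8.36 in B6 fusion, 8.51 and 9.21 in B6 ires, 8.23 and 8.24 in NOD fusion and 7.88 and 8.05 in NOD ires. Usp18 followed the replicate pattern in B6 fusion, by 1.11 and 1.10, and the reverse in B6 ires, where replicate 2 was higher by 0.68 in Tconv and 0.69 in Treg. Parp14 is an ADP-ribosyltransferase, and Dtx3l is a ubiquitin ligase whose partner is Parp9. Parp14 values in Tconv were 10.13 and 9.56 in B6 fusion, 9.38 and 9.87 in B6 ires, 9.60 and 9.81 in NOD fusion and 9.40 and 9.47 in NOD ires. Parp14 values in Treg were 10.42 and 9.99 in B6 fusion, 10.004 and 10.06 in B6 ires, 9.94 and 10.20 in NOD fusion and 9.72 and 9.95 in NOD ires. Parp14 was higher in both Treg arrays than in both Tconv arrays of every line but B6 fusion, where they overlapped. Dtx3l values in Tconv were 9.91 and 9.58 in B6 fusion, 9.48 and 9.73 in B6 ires, 9.65 and 9.66 in NOD fusion and 9.38 and 9.53 in NOD ires. Dtx3l values in Treg were 10.34 and 10.14 in B6 fusion, 9.93 and 9.89 in B6 ires, 9.83 and 10.05 in NOD fusion and 9.62 and 9.68 in NOD ires. Dtx3l was higher in both Treg arrays of all 4 lines.

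Of the other interferon-induced genes, Rtp4 encodes a receptor-transporting protein and Ifi27l2a a small mitochondrial membrane protein. Rtp4 values in Tconv were 10.06 and 8.90 in B6 fusion, 8.98 and 9.54 in B6 ires, 9.16 and 9.37 in NOD fusion and 8.29 and 8.77 in NOD ires. Rtp4 values in Treg were 10.20 and 8.85 in B6 fusion, 9.16 and 9.52 in B6 ires, 9.16 and 9.24 in NOD fusion and 8.40 and 9.05 in NOD ires. Rtp4 had its highest values on the B6 fusion replicate 1 arrays and its lowest on the NOD ires replicate 1 arrays. Ifi27l2a values in Tconv were 9.95 and 9.28 in B6 fusion, 9.20 and 9.89 in B6 ires, 9.26 and 9.21 in NOD fusion and 8.79 and 8.97 in NOD ires. Ifi27l2a values in Treg were 11.01 and 10.19 in B6 fusion, 10.17 and 10.57 in B6 ires, 9.74 and 10.05 in NOD fusion and 9.27 and 9.65 in NOD ires. Ifi27l2a was higher in both Treg arrays than in both Tconv arrays of each line. In Treg it was higher on all B6 than on all NOD arrays.

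The remaining 11 genes (Xaf1, Samd9l, Herc6, Parp12, Parp9, Trim25, Trim30a, Irgm1, Zbp1, Ifi203 and Ifi35) passed none of the tests below in the main fit. Trim30a spanned 10.18 to 11.34, the sensor Zbp1 9.20 to 10.36, and the GTPase Irgm1 9.76 to 10.67. Trim25, the ubiquitin ligase of RIG-I, spanned 8.74 to 9.33 and had the smallest mean absolute difference between sister arrays, 0.135.

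**Figure D3:**
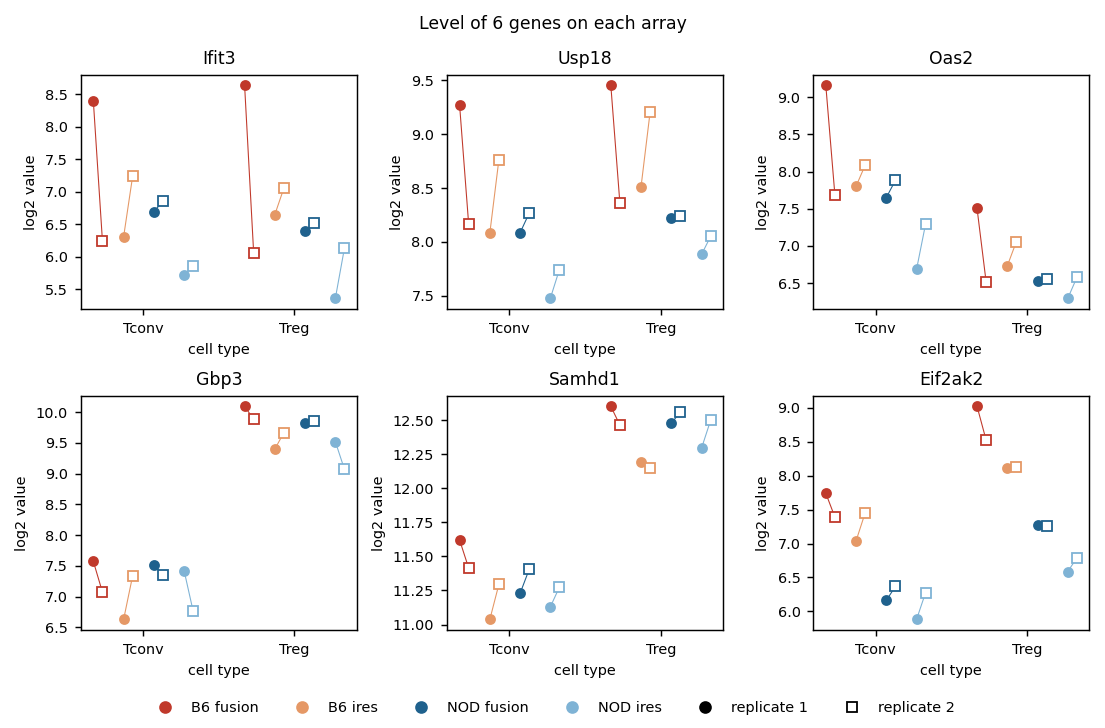
Log2 value (vertical axis) of 6 genes on every array, by cell type and line; filled circles are replicate 1, open squares replicate 2, and a line joins the 2 arrays of a group. Within each cell type Ifit3, Usp18 and Oas2 are highest on the B6 fusion replicate 1 array, Gbp3 and Samhd1 split by cell type, and Eif2ak2 splits by strain and by cell type.

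Other interferon-stimulated genes also ran higher on the B6 fusion replicate 1 arrays, and most genes of the other pathway lists did not. In a second list of such genes, 38 of 40 tested were higher in replicate 1 of B6 fusion Tconv (median 0.31) and 31 of 40 in B6 fusion Treg (median 0.17). At 2-fold, 9 genes of all 12798 were higher in replicate 1 of both B6 fusion groups: Ifit1, Ifit3, Ifitm3, Mx1, Oasl2, Rsad2, Rtp4 and Usp18 from the set, and Mx2, a relative of Mx1 on the second list, singled out after its values were seen. Mx2 differed by 1.40 in Tconv and 1.33 in Treg. No gene was 2-fold lower in both. The part of the set among these 9 genes is no test, because the set was put together with this shared variation in view. Receptors and proximal kinases were higher in replicate 1 for 4 of 9 genes in Tconv and 3 of 9 in Treg, with medians of -0.04 and -0.17. Negative regulators were so for 2 of 7 in either cell type, other IRF family members for 1 and 2 of 6, and sensor adaptors and kinases for 3 and 4 of 10. Immediate-early genes, which are known to rise when cells are handled, were higher in replicate 1 for 5 of 23 in Tconv (median -0.10) and 4 of 23 in Treg (median -0.19). These counts stand against 42.1% of all tested genes higher in replicate 1 in Tconv and 40.4% in Treg. The part of handling, or of the genes on these lists, in the replicate difference was not tested.

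Most of the interferon genes themselves were below detection. Of 10 with a probe set, 6 did not pass the filter, among them Ifnb1, whose values lay between 4.58 and 5.36. The other 4 had means of 7.44 (Ifna5), 5.89 (Ifna9), 7.54 (Ifnl2) and 6.22 (Ifng). These 4 differed between the B6 fusion arrays by a median of 0.13 in Tconv and 0.05 in Treg. Summed markers of other cells were also set side by side. The summed intensity of 14 myeloid markers was 756 on B6 fusion Tconv replicate 1 and 797 on replicate 2, and 821 against 766 in Treg. For 8 B cell and plasma cell markers it was 394 against 365 in Tconv and 435 against 449 in Treg. The plasmacytoid dendritic cell markers without Bst2, itself one of the 38 genes, summed to 734 against 767 in Tconv and 1070 against 1145 in Treg. The 9 CD8 T and NK cell markers differed more, with 1289 against 1482 in Tconv, lower in replicate 1, and 1791 against 1461 in Treg, higher in replicate 1, where Gzmb was at 9.64 and 8.71. Their part in the replicate difference was not tested.

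Treg and Tconv were compared over the 4 lines, 8 arrays against 8, to see whether the genes differ between the sorted populations. The arrays were not paired by replicate number in this test. More genes passed with a term for the replicate difference of each line, as given under the processing below. Gbp3, Ifitm3, Samhd1, Eif2ak2, Isg20 and Ifi27l2a were higher in Treg, and Oas2, Oasl2, Ddx58 and Ifit2 were lower. In all, 14 of 38 genes passed the test, 10 higher and 4 lower in Treg, where limma with Benjamini-Hochberg adjustment over 12798 genes at 0.05 called 28.6% of all genes, 16.7% higher and 11.9% lower. The share of the set called was 36.8%, with 26.3% higher and 10.5% lower. The median difference over the 38 was 0.15, against -0.01 over all tested genes, and 28 were positive. Leaving out each array in turn gave medians of 0.08 (without B6 fusion Treg replicate 1) to 0.22 (without B6 fusion Treg replicate 2), with 22 to 33 genes positive.

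Gbp3 averaged 9.67 in Treg and 7.21 in Tconv, a difference of 2.46 ± 0.12 (SE) and a 5.49-fold higher level (limma adjusted p = 6.66e-12). Ifitm3 was higher by 1.31 ± 0.23 (adjusted p = 0.000228), and by 0.89, 1.22, 1.28 and 1.86 in B6 fusion, B6 ires, NOD fusion and NOD ires. Samhd1 was higher by 1.11 ± 0.07, or 2.15-fold (adjusted p = 1.3e-10), with line differences between 1.01 and 1.20. Eif2ak2 was higher by 0.93 ± 0.09 (adjusted p = 1.47e-07), Isg20 by 0.81 ± 0.10 (adjusted p = 5.31e-06) and Ifi27l2a by 0.76 ± 0.13 (adjusted p = 0.000145). Each of these 6 genes was higher in Treg in all 4 lines. Smaller differences passed for Stat2 (0.42 ± 0.10, adjusted p = 0.00254), Parp14 (0.38 ± 0.10, adjusted p = 0.00444) and Dtx3l (0.32 ± 0.07, adjusted p = 0.00112). Irf9, at 0.19 ± 0.07, was at the edge of the threshold (adjusted p = 0.048) and missed it under 17 of 27 other settings.

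Oas2 was lower in Treg by 1.06 ± 0.17, a 2.09-fold lower level (adjusted p = 8.26e-05). Its difference was -1.41 in B6 fusion, -1.05 in B6 ires, -1.22 in NOD fusion and -0.56 in NOD ires. Oasl2 was lower by 0.70 ± 0.20 (adjusted p = 0.0103, but 0.0975 with trended and robust variances). Ddx58 was lower by 0.38 ± 0.07 (adjusted p = 0.00026) and Ifit2 by 0.35 ± 0.07 (adjusted p = 0.0006). Within the OAS family, Oas3 differed by 0.01 and Oasl1 by -0.07, and neither passed. Of the 12 genes with the largest replicate differences, Ifit3, Ifit1, Rsad2, Rtp4, Cmpk2, Mx1, Usp18 and Irf7 did not pass. Gbp3 and Samhd1 were the genes of the set whose 8 Treg arrays lay wholly above the 8 Tconv arrays, which was so for 5.69% of all genes. Without both B6 fusion replicate 1 arrays the median difference of the set was 0.14, with 29 of 38 genes positive.

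**Figure D4:**
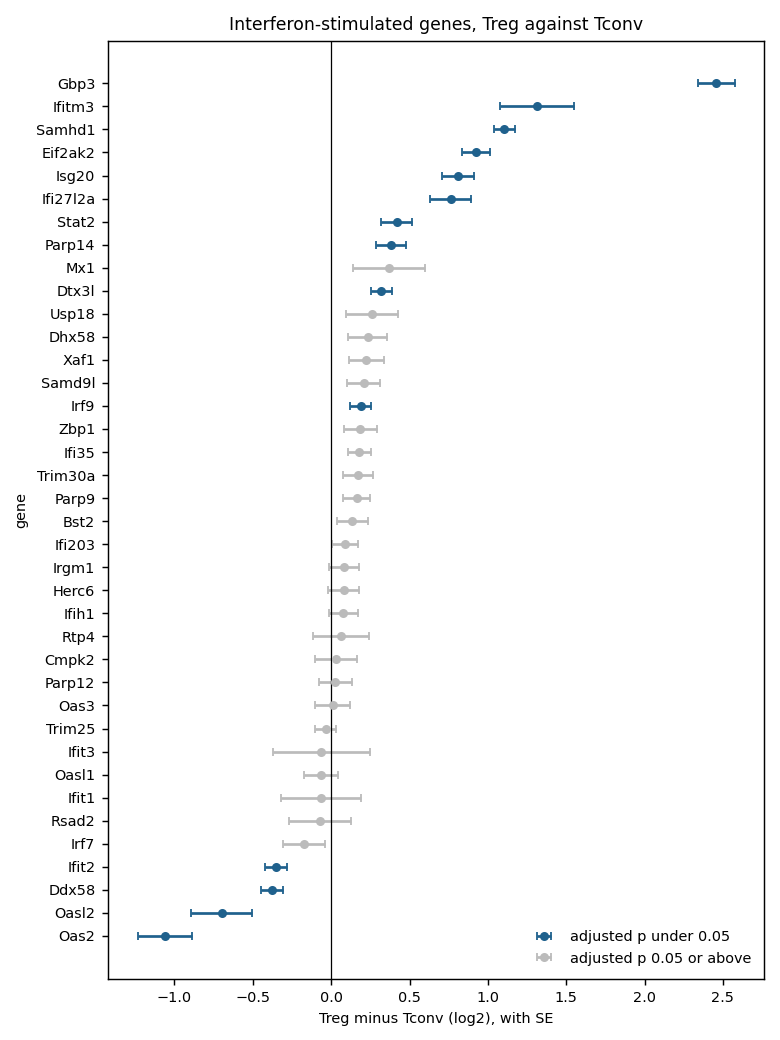
Treg minus Tconv difference over the 4 lines (log2 units, horizontal axis, bars are SE) for each of the 38 genes (vertical axis), with those past the adjusted threshold in blue. Gbp3 is highest at 2.46 and Oas2 lowest at -1.06, and 14 genes are blue.

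Genes around the set were tested in the same fit, and their counts stand against the 16.7% of all genes called higher and 11.9% called lower. Of 9 receptors and kinases 5 were higher and 1 lower in Treg, with Ifngr1 (1.11 ± 0.07), Il10rb (0.87 ± 0.06) and both chains of the type I receptor, Ifnar1 (0.57 ± 0.06) and Ifnar2 (0.55 ± 0.08), among the higher. Of 7 negative regulators 3 were higher and 1 lower, and Socs1, which blocks the receptor kinases, was higher by 0.53 ± 0.07. Of 6 other IRF genes 3 were higher and 1 lower, led by Irf5 (1.18 ± 0.06) and Irf8 (0.81 ± 0.08). Of 10 sensor adaptors and kinases 2 were higher and 2 lower, and the RNA receptor Tlr7 was higher by 1.49 ± 0.15. In the second list of interferon-stimulated genes 17 of 40 were higher and 3 lower, with Gbp5 (1.46 ± 0.08), Ube2l6 (1.30 ± 0.11) and Iigp1 (1.03 ± 0.13) higher and Slfn1 lower by 0.85 ± 0.08. Of the markers of plasmacytoid dendritic cells, which are known for making interferon, 3 of 6 tested were higher in Treg. Irf8 is 1 of these and was already counted above with the IRF genes. Without Bst2 the summed intensity of the markers was 949 to 1145 in Treg and 716 to 853 in Tconv. Of the B cell markers Cd79b was higher in Treg by 0.69 ± 0.09, and of 7 CD8 T and NK cell markers 2 were higher and 3 lower, from Gzmb at 2.65 to Klrd1 at -2.35. All 6 tested plasmacytoid dendritic cell markers had a positive difference. Siglech did not pass the filter and was not tested. Its values were not higher in Treg, at 5.38 to 5.94 against 5.495 to 6.07 in Tconv. The part of such cells in these differences was not tested. In bulk RNA a different number of cells of a type and a different amount of RNA per cell cannot be told apart.

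The fusion allele was compared with the ires allele in Treg, the cells that use Foxp3. Values were higher with the fusion allele for 37 of 38 genes, by a median of 0.24 log2 units. Of all 12798 tested genes 6263 were higher, with a median of -0.002. The genes of the set vary together between arrays, so their signs are not separate observations. In the test 1 gene of the set passed. Over all genes 0.609% passed. That gene was Eif2ak2, which averaged 8.02 in fusion and 7.40 in ires Treg, 4 arrays against 4 (difference 0.62 ± 0.13, adjusted p = 0.0323). It was higher by 0.66 on B6 and 0.58 on NOD. Its adjusted p was 0.0575 to 0.183 on leaving out any single Treg array except B6 fusion replicate 2, and 0.108 after quantile normalization. Irgm1, Gbp3 and Trim30a were higher on all 4 fusion than on all 4 ires Treg arrays, which was so for 1.41% of all genes, and their adjusted p values were 0.301, 0.292 and 0.322.

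On each background alone no gene of the set passed. In B6 Treg 0 of 38 were called by limma (0.344% of all genes were), with 5 at an unadjusted p under 0.05. All 38 were higher in fusion there (32 after quantile normalization), with a median of 0.23, but this rested on 1 array: without B6 fusion Treg replicate 1 the median was -0.04 and 17 of 38 were positive, and without replicate 2 the median was 0.59. In NOD Treg 0 of 38 were called (0.102% of all genes), with 5 at an unadjusted p under 0.05, a median of 0.24 and 35 of 38 positive. The difference between the backgrounds itself was called for 0 genes of the set (0.0391% of all), none of them at an unadjusted p under 0.05, and its median of -0.04 had no steady sign. It was 0.07 after quantile normalization and -0.13 with arrays centred on their medians, 0.26 without B6 fusion Treg replicate 1 (34 of 38 positive) and -0.33 without B6 fusion Treg replicate 2 (2 of 38 positive).

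The same allele comparison in Tconv, which do not use Foxp3, also gave positive differences. All 38 genes were higher in fusion Tconv, by a median of 0.29, and 0 were called by limma (0.0234% of all genes), with 11 at an unadjusted p under 0.05. Over all tested genes the median was 0.006 on B6 and -0.001 on NOD. Cmpk2 differed by 0.57 ± 0.19, Oasl2 by 0.80 ± 0.28 and Ifit2 by 0.28 ± 0.10, each at an adjusted p of 0.999. Ifit2 was the gene of the set higher on all fusion than on all ires Tconv arrays, which 0.469% of all genes were. Without both B6 fusion replicate 1 arrays the median was 0.13 in Tconv, with 34 of 38 positive, and 0.10 in Treg, with 26 of 38 positive. Within NOD, which these arrays do not touch, the median was 0.33 in Tconv with 37 positive, and the NOD ires replicate 1 arrays were the lowest of the series for many of the genes, as given above. The allele difference in Treg minus that in Tconv was called for 0 genes of the set (0.0469% of all), none at an unadjusted p under 0.05, with a median of -0.04. That median too turned with single arrays, from -0.18 without B6 fusion Tconv replicate 2 (4 of 38 positive) to 0.14 without B6 fusion Tconv replicate 1 (32 of 38 positive). None of the genes in the receptor, regulator, IRF, sensor or second interferon-stimulated lists passed in the allele comparisons of both backgrounds together, in Treg or in Tconv.

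NOD and B6 were compared over both alleles, 4 arrays against 4 in each cell type. In Treg, Eif2ak2, Ifi27l2a, Usp18, Isg20, Oas3, Oasl1, Bst2, Dhx58, Ifih1 and Dtx3l were lower in NOD. These were 10 of 38 genes, with none higher, where 21% of all genes were called and 9.82% were called lower. The median over the 38 was -0.26, and 34 were negative. Over all tested genes the median was -0.008 with the fusion and -0.002 with the ires allele. Over all genes 1433 were higher and 1257 lower, a split that became 1647 and 759 with arrays centred on their medians. The set's own split became 1 higher and 9 lower under that centring and 2 higher and 9 lower under quantile normalization.

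Eif2ak2 averaged 6.98 in NOD and 8.45 in B6 Treg, a 2.77-fold lower level in NOD (difference -1.47 ± 0.13, adjusted p = 2.51e-07). Ifi27l2a differed by -0.81 ± 0.18 (adjusted p = 0.00488), Isg20 by -0.68 ± 0.15 (adjusted p = 0.00312) and Bst2 by -0.63 ± 0.14 (adjusted p = 0.00496). Of the OAS family Oas3 differed by -0.68 ± 0.16 (adjusted p = 0.00562) and Oasl1 by -0.65 ± 0.15 (adjusted p = 0.00575). The sensors Dhx58 and Ifih1 differed by -0.58 ± 0.18 (adjusted p = 0.0267) and -0.46 ± 0.13 (adjusted p = 0.0207), and Usp18 by -0.79 ± 0.23 (adjusted p = 0.0238). Dtx3l, at -0.28 ± 0.10, was at the edge (adjusted p = 0.0473) and missed the threshold under 16 of 28 other settings. Usp18 and Dhx58 missed it under 7 of the 28 each, Ifih1 under 6 and Oas3 under 1. Eif2ak2, Ifi27l2a, Isg20, Bst2 and Oasl1 passed under all of them. Each of the 10 was lower in NOD with the fusion and with the ires allele. Ifit3 had a difference of -1.001 ± 0.43 that did not pass (adjusted p = 0.107), and its B6 Treg arrays alone spanned 6.06 to 8.64. In 12 genes all 4 NOD arrays were below all 4 B6 arrays, which was so for 10% of all genes.

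In Tconv 4 of 38 genes were lower in NOD and none higher (15.9% of all genes were called, 6.49% lower). Eif2ak2 differed by -1.24 ± 0.13 (adjusted p = 2.47e-06), Oas2 by -0.81 ± 0.24 (adjusted p = 0.0332), Oas3 by -0.63 ± 0.16 (adjusted p = 0.0141) and Oasl1 by -0.62 ± 0.15 (adjusted p = 0.0121). Of 28 other settings Oas2 missed the threshold under 10, Oas3 under 3 and Oasl1 under 2, and Eif2ak2 passed under all. Usp18, at -0.68 ± 0.23, missed the threshold (adjusted p = 0.055). Oasl1, Oas3 and Eif2ak2 were lower on all NOD than on all B6 Tconv arrays, as 8.92% of all genes were. The median was -0.25, against medians over all tested genes of 0.024 with the fusion and 0.023 with the ires allele. Without B6 fusion Tconv replicate 1 the median of the set was -0.04, with 16 of 38 genes positive. The split over all genes was 1202 higher and 831 lower, and 1932 and 374 with arrays centred on their medians, and that of the set became 1 higher and 4 lower under that centring and under quantile normalization. The strain difference in Treg minus that in Tconv was called for 0 genes of the set (0.82% of all), none at an unadjusted p under 0.05, with a median of -0.10. Leaving out each array in turn moved this median from -0.28 without B6 fusion Tconv replicate 1 (3 of 38 positive) to 0.10 without B6 fusion Tconv replicate 2 (27 of 38 positive).

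**Figure D5:**
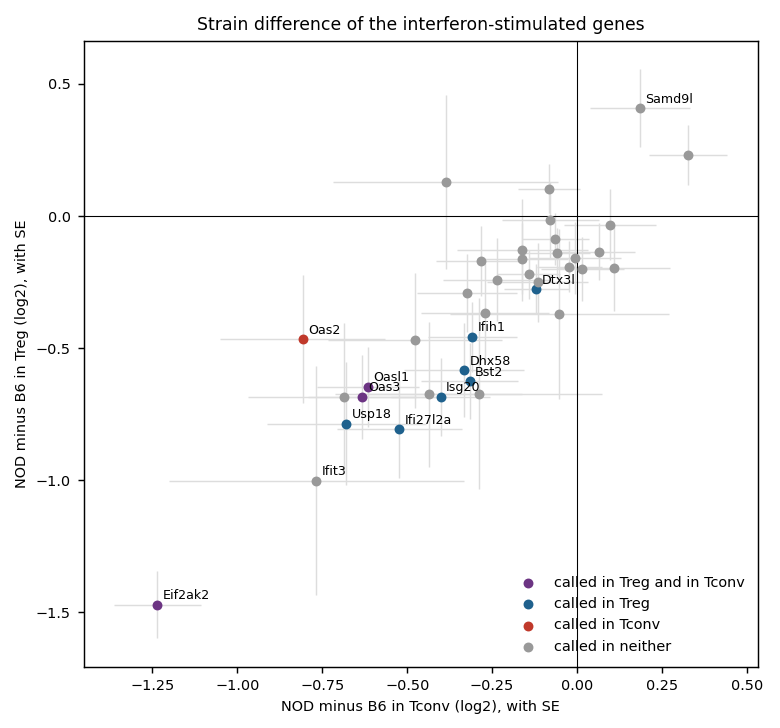
NOD minus B6 difference of each of the 38 genes in Tconv (horizontal axis) and in Treg (vertical axis), in log2 units with SE; colours mark which comparison passed the adjusted threshold. Eif2ak2 is lowest in both, at -1.24 and -1.47, and 34 of 38 genes are below 0 in Treg.

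Both strain comparisons use the B6 fusion replicate 1 arrays. Without both of them 9 genes passed in Treg, 1 higher and 8 lower in NOD, and 3 in Tconv, all lower, and the medians were -0.13 and -0.04. On leaving out single arrays the count in Treg was 6 without B6 fusion replicate 1, B6 ires replicate 2 or NOD ires replicate 1, and 16 without B6 fusion replicate 2. In Tconv it was 1 without B6 fusion replicate 1, 2 without NOD ires replicate 1 and 16 without B6 fusion replicate 2. Eif2ak2 passed under every alternative tried in either cell type, with a highest adjusted p of 1.07e-05 in Treg and 0.000327 in Tconv. Of the second list of interferon-stimulated genes 7 of 40 were lower in NOD Treg and 6 in NOD Tconv, with none higher. The largest were Trim12a (-4.72 ± 0.18 in Treg and -5.48 ± 0.18 in Tconv) and Ly6e (-1.86 ± 0.08 and -1.75 ± 0.08), followed by Epsti1 (-0.64 ± 0.09 and -0.66 ± 0.09). Socs1 was lower in NOD Treg by 0.45 ± 0.09 and Irf5 by 0.28 ± 0.08, whereas the kinase Tbk1 was higher in NOD Treg by 0.40 ± 0.10 and the phosphatase gene Ptpn11 in NOD Tconv by 0.40 ± 0.09. No other gene of the negative regulators, other IRF genes, and sensor adaptors and kinases passed in either strain comparison. No receptor or proximal kinase passed in either cell type. Whether sequence variants between the strains lie under the probes was not tested.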

How the data were processed

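RNA of 16 samples was measured on Affymetrix Mouse Gene 1.0 ST arrays. The deposited values are linear probe set intensity after RMA (background correction, quantile normalization and probe summary), made with Affymetrix Power Tools per the submitters' processing notes; the genome build is not given in the sources used here. Values were taken to log2. Of 25108 probe sets 21157 had 1 gene symbol; the probe set with the highest mean stood for a gene, giving 19531 genes. Testing was limited to the 12798 genes that exceeded a log2 value of 6.06, the 40th percentile, on at least 2 arrays. limma 3.58.1 in R 4.3.3 fitted 1 mean per group to all 16 arrays, with two-sided moderated tests of 10 contrasts, Benjamini-Hochberg adjustment over the tested genes and a threshold of 0.05. The fit was tested on simulated data. The number of arrays limits the precision. Differences between the 2 arrays of a group, levels and promoter matches carry no test. Array values were printed for the 12 genes with the largest differences between such arrays and for called genes. The genes and lists were chosen with earlier results of these data known. Alternatives changed the filter, scaling, variance model, array weights, block, covariate, probe sets or arrays used.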

Additional observations from a re-analysis of the deposited data

How the results depend on the processing

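In Treg against Tconv, in place of 14 genes, 23 passed (19 higher, 4 lower) with a fixed term for the replicate difference of each mouse line. The median difference of the set was 0.14 without both B6 fusion replicate 1 arrays and 0.08 to 0.22 on leaving out single arrays. These fixed terms were chosen after seeing the data, as was leaving out both B6 fusion replicate 1 arrays. For fusion against ires in Treg, 0 genes passed after quantile normalization and without both B6 fusion replicate 1 arrays, 2 passed with only the groups compared, and 0 to 1 on leaving out single arrays. In B6 Treg alone 2 passed with only the groups compared, and in Tconv 0 to 1 on leaving out single arrays, the 1 without B6 fusion Tconv replicate 2. For NOD against B6 in Treg, 6 genes passed with the interquartile range of each array as a covariate, 16 with only the groups compared, and 6 to 16 on leaving out single arrays: 6 without B6 fusion Treg replicate 1, B6 ires Treg replicate 2 or NOD ires Treg replicate 1, and 16 without B6 fusion Treg replicate 2. In Tconv 1 passed with that covariate, and 1 to 16 on leaving out single arrays, with 1 without B6 fusion Tconv replicate 1, 2 without NOD ires Tconv replicate 1 and 16 without B6 fusion Tconv replicate 2. The causes were not tested, beyond that leaving out an array leaves fewer samples and a group of 1, assumed to vary like the others. None of the 29 single-gene calls reversed direction under any alternative run. In the main fit 28.6% of all genes passed in Treg against Tconv and 0.609% in fusion against ires in Treg. For the strain 21% of all genes passed in Treg and 15.9% in Tconv. Shares of all genes under the alternatives are not given here. Whether the set moved more than all genes did cannot be read from the counts in this paragraph.

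The main fit did not pair groups by replicate number, because the rule used asked every pair of groups to pass 0.1. Differences between sister arrays correlated across 28 pairs of groups at -0.371 to 0.465, with 13 at or below 0.1. Most of these pairs join different lines and cannot show whether Treg and Tconv of the same line are paired. Only the 4 pairs within a line bear on that. Between Treg and Tconv of a line, the correlation was 0.398 in B6 fusion, 0.396 in B6 ires, 0.239 in NOD fusion and 0.08 in NOD ires. The median replicate difference of the set had the same sign in Tconv and Treg of each line. It was 0.668 and 0.608 in B6 fusion and -0.418 and -0.178 in B6 ires. In NOD fusion it was -0.121 and -0.029, and in NOD ires -0.188 and -0.137. The main fit of Treg against Tconv left such shared differences in its error. A random block by line and replicate number, used for the contrasts between lines, had a fitted correlation of 0.301. With replicate number as a block shared by all lines, 14 genes passed in Treg against Tconv and 1 in fusion against ires in Treg. For the strain 10 passed in Treg and 5 in Tconv (4 without the block in Tconv), and 0 in the other comparisons. Averaging probe sets could not move these genes, which have 1 each, and restricting the fit to the groups compared does not apply to the 3 contrasts that use all groups. Mx1 and Ifitm3 were above the detection level on 9 of 16 arrays each, and their lower values lie near background.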
